A study of Homo sapiens with 5 samples.

Results

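The 279 genes described here are long noncoding RNAs whose symbols follow the naming rules for intergenic (LINC and a number), antisense (-AS1, -AS2), divergent (-DT) and intronic (-IT1) transcripts, and which gave a signal in PC-3 cells. PC-3 is an androgen-independent human prostate cancer line from a bone metastasis. Of 19775 genes with a probe set of a single symbol, 1822 had such a symbol. The members were chosen by these symbols and by the measured level: of the probe sets of a gene the one with the highest 5-array mean was used, and 279 genes (15.3%) reached a level of at least 6 on any array. The level is log2 of the deposited intensity, and 54.8% of all genes (10843) reached 6. The members were 144 antisense, 76 intergenic, 57 divergent and 2 intronic RNAs. RefSeq listed 273 of them as lncRNA and 6 could not be matched. The members just inside the threshold reached 6.01 (LINC03086) and 6.02 (LINC01293), with LINC02551 and UBL7-DT at 6.002, and those just outside it reached 5.999 (NAPA-AS1), 5.995 (ATP13A3-DT), 5.98 (LINC01342) and 5.98 (STAU2-AS1).

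Long noncoding RNAs are made by RNA polymerase II, are usually spliced and carry no long open reading frame. Many start from the promoter of a coding gene and run the other way (divergent transcripts), or cover that gene on the opposite strand (antisense transcripts). Some act on their neighbour in the nucleus and others act in the cytoplasm, for example by binding microRNAs, while for most no function is established. In prostate cancer several are known as markers of tumour cells.

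The study asked which genes differ between spheroid and flat growth and which depend on TRIB1, a pseudokinase that presents proteins to the ubiquitin ligase COP1. The arrays held PC-3 cells in spheroid culture, PC-3 cells in normal 2D culture, and PC-3 cells that expressed the hairpin shTRIB1-1, the hairpin shTRIB1-2 or the control hairpin shGFP, with 1 array each. The labels give the same dish culture for all samples, the spheroid sample included, name no treatment, and do not say whether arrays came from separate cultures or whether a hairpin line was a clone or a pool. With 1 array per condition, a difference has no replicate check.

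The cells were compared with their markers first. KRT8, KRT18, EPCAM, VIM and CD44 lay between 9.39 and 13.19 on all 5 arrays, as is known of PC-3. The leukocyte gene PTPRC was at most 4.03 and the endothelial gene CDH5 at most 3.48. VWF was at most 5.45, while PECAM1 was 9.53 in spheroid and 7.57 in 2D. The fibroblast genes DCN and LUM were at most 5.78 and 3.17, and the collagen COL1A1 was 8.53 in spheroid and 7.06 in 2D, and 8.30, 8.41 and 6.95 on the shTRIB1-1, shTRIB1-2 and shGFP arrays. In a culture measured as a whole, fewer cells that make an RNA and less RNA per cell cannot be told apart. KLK3, the gene of prostate-specific antigen, which PC-3 is not known to make, was 6.90 on every array and the hemoglobin gene HBB between 6.15 and 6.25, so a level above 6 does not by itself show expression. TRIB1 was 11.91 under the label shTRIB1-1 and 11.76 under the label shTRIB1-2, against 11.97 under shGFP. The hairpin labels were therefore not borne out by a clearly lower TRIB1 level. The actin control's 5′ signal over its 3′ signal, which is lower in degraded RNA or short labelled products, was 0.131 in spheroid and 0.184 in 2D. The ratio was 0.445, 0.442 and 0.436 on the shTRIB1-1, shTRIB1-2 and shGFP arrays. Its part in the differences below was not tested.

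More members were higher than lower in spheroid. At a log2 difference of at least 1, 39 of 279 members (14.0%) were higher in spheroid than in 2D, where 4.98% of all genes were. Another 8 members (2.87%) were lower, where 5.16% of all genes were. Any difference above 0 was seen in 175 members (62.7%, against 47% of all genes) and one below 0 in 96 (34.4%, against 50.9%). The median difference over the members was 0.15, against -0.0095 over all genes. The spheroid array was the highest of the 5 for 117 members (41.9%), against 25.3% of all genes. A gene that passes the filter only through the array on which it is high has to differ, so these counts are descriptions and support nothing. Of the 39 members higher in spheroid, 22 were below 6 in 2D. These 22 were 7.89% of the 279 members, where 1.54% of all genes were both. Of the 8 lower members, 5 were below 6 in spheroid. These 5 were 1.79% of the 279 members, where 1.22% of all genes were both. A level of 6 was reached on all arrays by 153 members (54.8%, against 87.1% of all genes), and on 1 array alone by 49 (17.6%, against 4.21%). That array was spheroid for 28 members (10%, against 1.61%). Among the 184 members at 6 or more on both arrays, 17 (9.24%) were higher, against 3.81% of all genes so filtered, and 3 (1.63%) were lower, against 4.37%.

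Split by mean level, the higher share was near that of all genes at low levels and further above it elsewhere. Below a mean of 6, 12 of 66 members (18.2%) were at least 2-fold higher in spheroid, against 15.8% of all genes at that level, and 2 (3.03%) were lower, against 7.07%. Between 6 and 8 the count was 20 of 172 (11.6%), against 5.41% of all genes, and 3 (1.74%) were lower, against 5.09%. At 8 or more it was 7 of 41 (17.1%), against 3.52%, but there 3 members (7.32%) were also lower, against 5.01%. The other 114 genes of the lncRNA type, whose symbols do not follow the naming rule, had 17 higher (14.9%) and 2 lower (1.75%). Of the intergenic members 13 of 76 were higher and 3 lower, of the antisense members 18 of 144 and 4, and of the divergent members 8 of 57 and 1. Neither intronic RNA passed 2-fold.

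**Figure D1:**
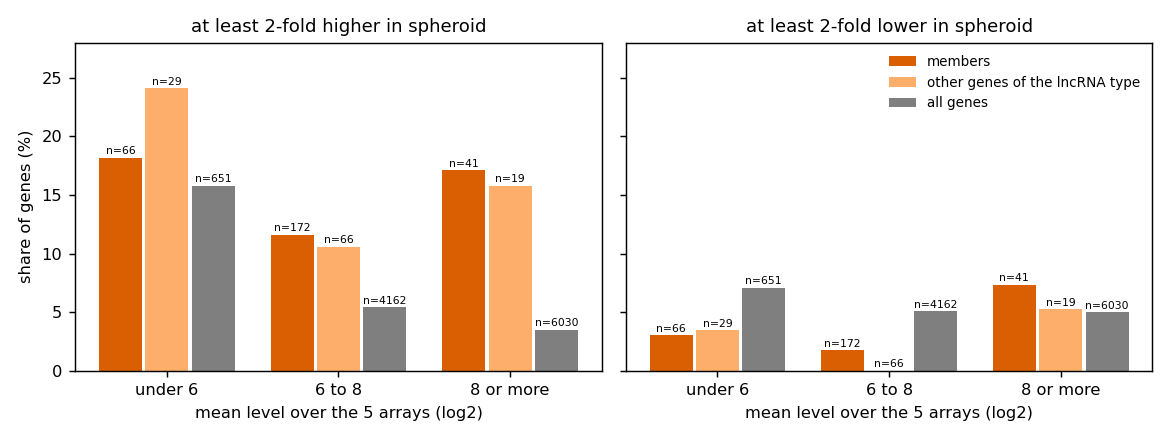
Share of genes (%) at least 2-fold higher (left) and lower (right) in spheroid than in 2D, by mean level over the 5 arrays, for the members, other genes of the lncRNA type and all genes that reached a level of 6. The number of genes is above each bar. At a mean of 8 or more, 17.1% of members and 3.52% of all genes were higher in spheroid, and 7.32% and 5.01% were lower.

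Among the intergenic RNAs, LINC02806 differed most. It had a level of 8.0 in spheroid and 3.94 in 2D, a difference of 4.07 on the log2 scale, with 4.24, 3.94 and 4.14 on the shTRIB1-1, shTRIB1-2 and shGFP arrays. It was thus high on 1 array and near background on 4. A second probe set had 6.46 in spheroid and 3.14 in 2D, while the last one stayed between 2.86 and 3.37. Since the 2D value is near background, the size of the difference is uncertain: it was 3.12 with a pseudocount of 16 and 3.32 as the median of its probe sets. LINC00520 had 8.12 in spheroid and 5.63 in 2D (2.49), and 5.56, 5.60 and 5.63 on the shTRIB1-1, shTRIB1-2 and shGFP arrays. LINC00520 too was above the threshold in spheroid alone. LINC01003 had 9.20 in spheroid and 6.98 in 2D (2.22), but it was as high on the shTRIB1-2 array, at 9.34, with 7.11 on shTRIB1-1 and 8.31 on shGFP. LINC00520 and LINC01003 had only probe sets with the suffix _s_at or _x_at, whose probes can match other transcripts. LINC00973 had 8.39 in spheroid and 6.58 in 2D (1.82), and was lower on the shTRIB1-1, shTRIB1-2 and shGFP arrays, at 5.68, 4.32 and 5.91.

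LURAP1L-AS1, antisense to an adaptor gene, was 6.10 in spheroid and 3.61 in 2D (2.49), and between 3.57 and 3.81 on the hairpin arrays. Its highest level is below that of KLK3, so its expression is not shown. With a pseudocount of 16 the difference of LURAP1L-AS1 was 1.58. The start regions of LINC02806 and LURAP1L-AS1, the 2 members with the largest differences among those with a listed promoter, are shown because both hold TGATGNAA, letters of the C/EBP-ATF composite site that ATF4 and CHOP bind. The windows are from RefSeq (GRCh38.p14), 250 bases before to 50 after the start, chr1:148279018-148279317 on the plus strand and chr9:12814340-12814639 on the minus strand. Capitals mark matches of TGATGNAA and of TGANTCA, the AP-1 letters, on either strand.
LINC02806: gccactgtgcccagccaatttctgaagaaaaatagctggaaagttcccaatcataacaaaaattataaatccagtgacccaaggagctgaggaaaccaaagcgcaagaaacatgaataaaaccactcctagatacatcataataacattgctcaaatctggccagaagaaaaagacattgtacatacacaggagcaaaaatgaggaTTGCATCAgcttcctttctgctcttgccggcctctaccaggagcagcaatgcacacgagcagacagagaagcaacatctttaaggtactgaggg
LURAP1L-AS1: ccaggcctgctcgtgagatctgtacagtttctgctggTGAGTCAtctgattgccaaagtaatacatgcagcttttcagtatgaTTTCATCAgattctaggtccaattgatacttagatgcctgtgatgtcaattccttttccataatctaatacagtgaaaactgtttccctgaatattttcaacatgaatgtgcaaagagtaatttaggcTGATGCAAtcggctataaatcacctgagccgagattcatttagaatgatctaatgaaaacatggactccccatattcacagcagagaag
LINC02806 had 1 TGATGNAA match and no TGANTCA match. LURAP1L-AS1 had 2 matches of TGATGNAA and 1 place that matched TGANTCA, which reads the same on both strands. Over the 32 members higher in spheroid with a listed promoter, TGATGNAA was found in 3 (9.38%; DLGAP1-AS2 is the other one), against 2.35% of 213 members and 3.67% of 27305 promoters. TGANTCA was found in 6 (18.8%), against 7.98% of members and 7.76% of all promoters. The 6 were LINC00973, FAM131B-AS2, LURAP1L-AS1, LINC00460, GABPB1-AS1 and DLGAP1-AS2. ACGTG, the core of the hypoxia-responsive element, was in 34.4% of those 32, against 30.0% of members and 21.6% of all. CCAAT, bound by NF-Y, was in 37.5%, against 39.4% and 35.7%. TTTGAA, part of the element for repression of cell cycle genes, was in 6.25%, against 6.10% and 15.4%. A match of letters is a description and not a binding site. The members' windows held a median of 24 CG dinucleotides, against 14 over all promoters, and base composition bears on each share.

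The other antisense RNAs among the 12 highest were above 6 on both arrays. CCDC18-AS1 had 9.20 in spheroid and 7.10 in 2D (2.10), with 7.29, 6.71 and 6.79 on the shTRIB1-1, shTRIB1-2 and shGFP arrays, though its second probe set was at or below 5.57 throughout. ATXN1-AS1 had 9.27 in spheroid and 7.41 in 2D (1.85), and its second probe set differed by 1.95. DLGAP1-AS2 had 8.08 in spheroid and 6.40 in 2D (1.68). ASH1L-AS1, antisense to a histone methyltransferase gene, had 8.92 in spheroid and 7.28 in 2D (1.64). For ATXN1-AS1 and ASH1L-AS1 the 2D array was the lowest of the 5, and the shGFP array lay between, at 8.73 and 8.26. For ZNF436-AS1, GABPB1-AS1, LINC00525 and LINC01139, chosen after their values were seen, the spheroid array was the highest, with differences of 1.37, 1.56, 1.22 and 1.54. Over the members past 2-fold, all 14 further probe sets that reached 6 had the same sign as the one used, and 6 of the 14 passed 2-fold. Such a set could reach 6 through the array on which it is high, so this count supports nothing. Sets below 6 throughout were left out, among them one of PGM5-AS1 that went the other way.

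**Figure D2:**
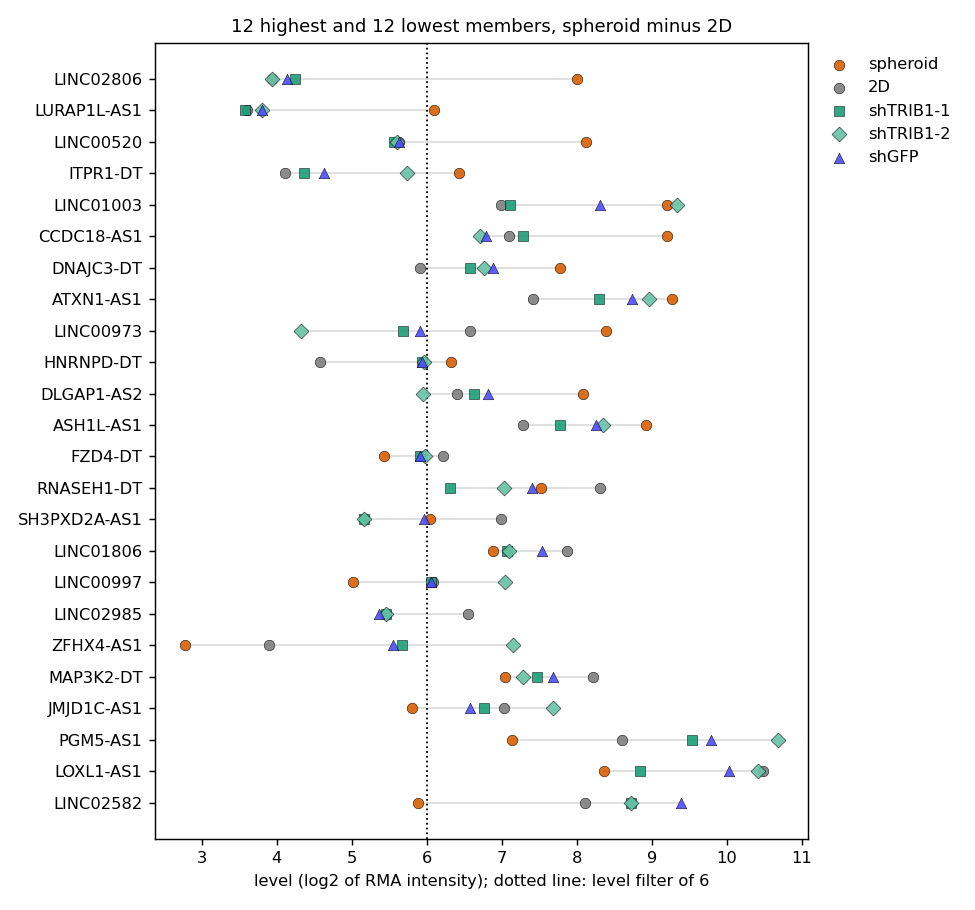
Levels (log2 of RMA intensity) of the 12 members with the highest and the 12 with the lowest spheroid minus 2D difference, sorted by that difference, with 1 point per array. The dotted line is the level filter of 6. LINC02806 is at 8.0 in spheroid and at most 4.24 elsewhere, and LINC02582 is at 5.89 in spheroid and at least 8.10 elsewhere.

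Fewer members were lower in spheroid. LINC02582 had 5.89 in spheroid and 8.10 in 2D (-2.22), with 8.72, 8.72 and 9.39 on the shTRIB1-1, shTRIB1-2 and shGFP arrays. Spheroid was the single low array for this RNA. LOXL1-AS1, antisense to a lysyl oxidase-like gene of elastin cross-linking, had 8.36 in spheroid and 10.49 in 2D (-2.13). Its level was also low on shTRIB1-1, at 8.84, against 10.42 on shTRIB1-2 and 10.03 on shGFP. PGM5-AS1 had 7.14 in spheroid and 8.60 in 2D (-1.47), and between 9.53 and 10.69 on the hairpin arrays. Its second probe set, below 6 on all arrays, differed by 0.62 the other way. The next were JMJD1C-AS1 (-1.23), MAP3K2-DT (-1.17), ZFHX4-AS1 (-1.12), LINC02985 (-1.09), LINC00997 (-1.07) and LINC01806 (-1.0, just short of 2-fold). SH3PXD2A-AS1 (-0.95), RNASEH1-DT (-0.80) and FZD4-DT (-0.79) completed the 12 lowest. ZFHX4-AS1 was below 6 on both arrays, at 2.77 in spheroid and 3.89 in 2D. MAP3K2-DT had only _s_at or _x_at probe sets.

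The divergent transcripts among the 12 highest start beside a coding gene and run away from it. DNAJC3-DT had 7.78 in spheroid and 5.91 in 2D (1.87), with 6.57, 6.76 and 6.89 on the shTRIB1-1, shTRIB1-2 and shGFP arrays. DNAJC3, a co-chaperone of the endoplasmic reticulum that restrains the stress kinase PERK, was 10.21 in spheroid and 9.35 in 2D (0.87). The other probe set of DNAJC3-DT was below 6 throughout and differed by 0.02, and the median of the probe sets gave 0.95, short of 2-fold. ITPR1-DT had 6.43 in spheroid and 4.11 in 2D (2.33), but ITPR1, an inositol trisphosphate receptor that releases calcium, had 8.10 in spheroid and 7.96 in 2D (0.14). On the shTRIB1-2 array both were higher than on shGFP, ITPR1-DT by 1.11 and ITPR1 by 0.93. HNRNPD-DT had 6.32 in spheroid and 4.58 in 2D (1.74), while HNRNPD, which binds AU-rich messenger RNAs, had 11.16 in spheroid and 12.15 in 2D (-0.99). HNRNPD-DT lay between 5.93 and 5.96 on the hairpin arrays. The highest levels of ITPR1-DT and HNRNPD-DT are below that of KLK3, so their expression is not shown. With a pseudocount of 16 their differences were 1.63 and 1.26. In shGFP minus 2D, DNAJC3, ITPR1 and HNRNPD differed by 0.80, -0.36 and -0.11, so for DNAJC3 the 2D array also lay below shGFP.

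Other divergent RNAs and their coding genes also differed by unlike amounts. NEK2-DT had 6.13 in spheroid and 6.11 in 2D (0.02), and NEK2, a kinase of centrosome separation in mitosis, had 5.99 in spheroid and 9.33 in 2D (-3.34). NEK2-DT stayed between 5.93 and 6.13 on all 5 arrays. Its probe set carries the _x_at suffix, which marks probes that can match other transcripts, and its level lies close to the threshold. That level is below the one of KLK3, so expression of NEK2-DT is not shown. FAM111A-DT had 8.23 in spheroid and 7.93 in 2D (0.30), and FAM111A, a protease active at replication forks, had 8.68 in spheroid and 9.81 in 2D (-1.13). FZD4-DT and the Wnt receptor gene FZD4 differed by -0.79 and -1.41. KDM7A-DT and the histone demethylase gene KDM7A differed by 0.49 and 1.37. In shGFP minus 2D, NEK2, FAM111A, FZD4 and KDM7A differed by -0.64, -1.07, -0.04 and 1.22. For FAM111A and KDM7A, shGFP thus lay near spheroid, with the 2D array apart. NEK2-DT was chosen after its values were seen, as the divergent RNA whose partner differed most.

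The promoters of 4 divergent pairs are shown because a transcript on each strand is annotated to start there. The measured levels of the 2 transcripts differed by unlike amounts. The sequences are RefSeq windows (GRCh38.p14) on the strand of the noncoding RNA: chr3:4493114-4493413 (minus) for ITPR1-DT, chr13:95676876-95677175 (minus) for DNAJC3-DT, chr1:211675512-211675811 (plus) for NEK2-DT and chr11:59142759-59143058 (minus) for FAM111A-DT. Capitals mark the bases between the annotated starts of the noncoding RNA and of the coding gene.
ITPR1-DT: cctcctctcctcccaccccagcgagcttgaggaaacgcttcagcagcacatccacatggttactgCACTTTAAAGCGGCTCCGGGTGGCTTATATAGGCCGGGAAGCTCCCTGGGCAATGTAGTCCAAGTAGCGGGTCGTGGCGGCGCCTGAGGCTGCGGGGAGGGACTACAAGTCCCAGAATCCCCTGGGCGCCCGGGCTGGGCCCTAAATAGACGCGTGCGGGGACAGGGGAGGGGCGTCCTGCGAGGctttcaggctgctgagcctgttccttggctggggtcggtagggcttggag
DNAJC3-DT: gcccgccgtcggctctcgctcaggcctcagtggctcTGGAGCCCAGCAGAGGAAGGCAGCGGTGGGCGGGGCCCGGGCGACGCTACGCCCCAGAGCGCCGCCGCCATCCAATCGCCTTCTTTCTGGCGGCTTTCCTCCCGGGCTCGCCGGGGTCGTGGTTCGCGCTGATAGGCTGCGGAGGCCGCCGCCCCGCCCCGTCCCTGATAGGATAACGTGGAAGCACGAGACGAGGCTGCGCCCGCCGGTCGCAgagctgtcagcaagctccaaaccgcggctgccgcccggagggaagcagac
NEK2-DT: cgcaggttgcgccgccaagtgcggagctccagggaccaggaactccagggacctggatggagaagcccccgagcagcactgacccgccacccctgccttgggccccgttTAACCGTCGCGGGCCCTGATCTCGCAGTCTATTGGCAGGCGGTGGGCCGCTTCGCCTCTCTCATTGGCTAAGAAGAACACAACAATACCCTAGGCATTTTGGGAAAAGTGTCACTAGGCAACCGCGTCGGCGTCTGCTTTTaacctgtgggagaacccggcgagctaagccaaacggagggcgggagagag
FAM111A-DT: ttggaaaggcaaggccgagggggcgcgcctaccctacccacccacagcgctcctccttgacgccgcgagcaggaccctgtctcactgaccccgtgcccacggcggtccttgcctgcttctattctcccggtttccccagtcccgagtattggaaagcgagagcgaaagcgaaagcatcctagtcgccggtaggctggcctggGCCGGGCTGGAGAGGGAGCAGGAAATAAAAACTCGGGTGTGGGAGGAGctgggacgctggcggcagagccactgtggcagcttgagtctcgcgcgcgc
The starts lay 185, 214, 141 and 48 bases apart, in this order. The NEK2-DT window held CCAAT at 2 places on the strand of NEK2, and the DNAJC3-DT window held 1 CCAAT and 1 ACGTG. The FAM111A-DT window held 1 CCAAT, and the ITPR1-DT window none of the 5 motifs. The windows held 18, 37, 22 and 25 CG dinucleotides for ITPR1-DT, DNAJC3-DT, NEK2-DT and FAM111A-DT.

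Over all pairs, the noncoding RNA and the gene in its symbol differed in the same direction in spheroid minus 2D about as often as not. A gene was named in the symbol of 203 members, and in 159 pairs that gene reached a level of 6 on an array. In spheroid minus 2D, 82 of the 153 pairs without a difference of exactly 0 had the same sign (53.6%). Pearson's r across the 159 pairs was 0.20 and Spearman's rho 0.13, as descriptions of pairs that share the same 2 arrays. For the 81 pairs on opposite strands with starts within 1000 bases, 43 of 79 had the same sign (54.4%). In the 60 pairs whose starts face away within 1000 bases (a median of 160.5 bases apart), 8 RNAs and 2 coding genes were at least 2-fold higher in spheroid, and 0 RNAs and 3 coding genes lower. Of all genes, 4.98% were higher and 5.16% lower by that much. Where the RNA was 2-fold higher (19 pairs), the gene was above 0 in 10 and below it in 9. Where the RNA was 2-fold lower (5 pairs), the gene was below 0 in 4. Of all genes, 47% were above 0 and 50.9% below 0 in spheroid minus 2D. Against shGFP, 56.2% of pairs without a difference of 0 had the same sign on each hairpin array. Pearson's r was 0.24 on shTRIB1-1 and 0.43 on shTRIB1-2. For opposite strands within 1000 bases the shares were 61.6% and 53.5%, and for the other pairs with listed promoters 68.8% and 78.6%. All 8 RNAs 2-fold lower on shTRIB1-1 had a gene below 0, as were 53.5% of all genes on that array. Only 1 of the 8 genes was itself 2-fold lower. Without strand-specific labelling in the sources used here, a probe set for an RNA that overlaps its gene may also report the other strand.

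In 4 pairs both passed 2-fold in spheroid minus 2D, 3 of them in the same direction. Over the 159 pairs, 24 RNAs and 13 genes passed it, 9 of those genes without their RNA. Of the 13 genes, 5 were higher and 8 lower, where 4.98% and 5.16% of all genes were. ATXN1-AS1 (1.85) stood beside ATXN1 (1.66; 9.89 in spheroid and 8.24 in 2D). LURAP1L-AS1 (2.49, with its highest level below that of KLK3) stood beside LURAP1L (1.54; 9.09 in spheroid and 7.55 in 2D). PGM5-AS1 (-1.47) stood beside PGM5 (-2.97), a phosphoglucomutase-related protein of cell junctions, which had 6.10 in spheroid and 9.08 in 2D. CCDC18-AS1 (2.10) and the coiled-coil gene CCDC18 (-1.64; 6.98 in spheroid and 8.62 in 2D) went opposite ways. OIP5-AS1 was 0.47 higher where OIP5, a centromere protein gene, was lower by -2.10 (7.69 in spheroid and 9.79 in 2D). NR2F1-AS1 differed by 0.46 and the nuclear receptor gene NR2F1 by 1.93. In shGFP minus 2D, ATXN1, LURAP1L and PGM5 differed by 0.41, 1.52 and 1.28. There CCDC18, OIP5 and NR2F1 differed by -0.99, -0.70 and 1.03. LURAP1L was thus as high on shGFP, at 9.07, as in spheroid.

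**Figure D3:**
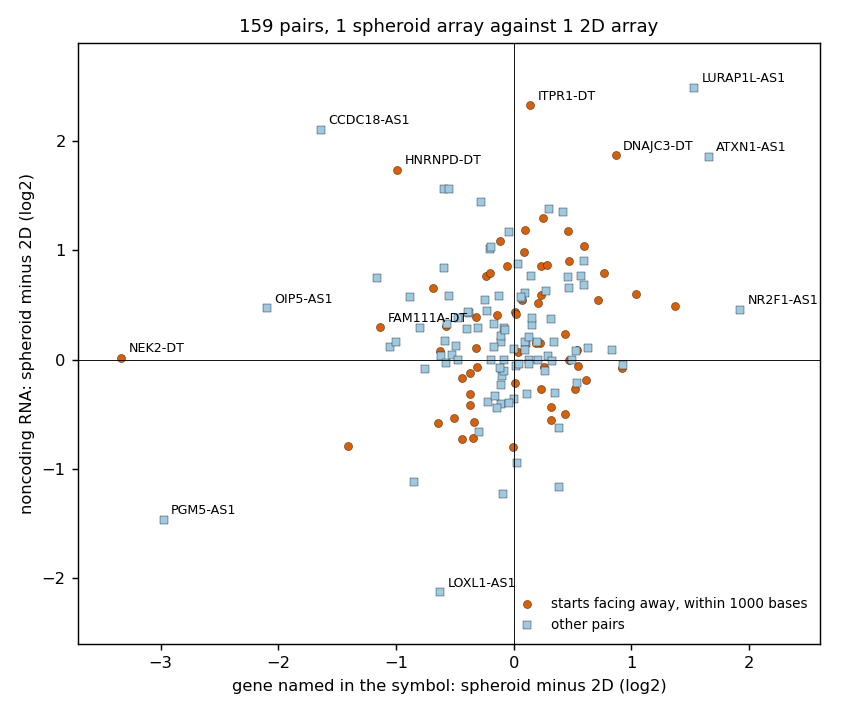
Spheroid minus 2D difference (log2) of 159 noncoding RNAs, 2 of them intronic, (vertical axis) against that of the gene in their symbol (horizontal axis), with 1 point per pair. The circles are pairs whose starts face away within 1000 bases. Pearson's r is 0.20, NEK2-DT lies at 0.02 beside NEK2 at -3.34, and CCDC18-AS1 lies at 2.10 beside CCDC18 at -1.64.

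Of 37 listed members with a described role, 31 had a probe set and 14 reached 6. The median spheroid minus 2D difference of the 14 was 0.49, with 4 at least 2-fold higher and 0 lower, where 4.98% and 5.16% of all genes were. EPB41L4A-AS1, host of a small nucleolar RNA, had 11.31 in spheroid and 10.16 in 2D (1.15), and between 10.76 and 10.80 on the hairpin arrays. SBF2-AS1 had 6.66 in spheroid and 5.64 in 2D (1.02). LINC00520 and LINC00973 were the other 2, and MAPKAPK5-AS1 came close, with 8.91 in spheroid and 7.93 in 2D (0.99). SBF2-AS1 and LINC00520 passed the filter through the spheroid array alone, so they had to be higher there, and these counts support nothing. OIP5-AS1, the human counterpart of the zebrafish RNA cyrano, which binds the microRNA miR-7, had 11.54 in spheroid and 11.07 in 2D (0.47). PSMA3-AS1, MCM3AP-AS1, THAP9-AS1 and SPINT1-AS1 differed by 0.22, 0.29, 0.07 and -0.01, and each of these signs turned in a setting (MCM3AP-AS1 to -0.57 as the median of its probe sets). LINC00662, TPT1-AS1, LINC00467 and LINC01503 differed by 0.74, 0.52, -0.23 and -0.22. As the median of its probe sets LINC00662 differed by -0.44, and against the mean of 2D and shGFP LINC00467 differed by 0.21. TMPO-AS1, DEPDC1-AS1 and HMMR-AS1 were below 6 on every array, and no difference is read from them. Of 55 other long noncoding RNAs listed for comparison, 18 reached 6, with 3 at least 2-fold higher in spheroid and 0 lower, beside the same shares of all genes. These were MALAT1, the RNA of nuclear speckles (13.01 in spheroid and 11.91 in 2D), MIR31HG, host of miR-31 (8.34 in spheroid and 7.22 in 2D), and LINC-PINT (7.20 in spheroid and 4.83 in 2D). On the hairpin arrays MALAT1 lay between 10.92 and 11.74 and LINC-PINT between 6.38 and 6.65. MIR31HG had 7.95, 8.55 and 8.50 on shTRIB1-1, shTRIB1-2 and shGFP. For MIR31HG and LINC-PINT the 2D array was thus the lowest.

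The arrays labelled shTRIB1-1 and shTRIB1-2 were each set against the same shGFP array. On shTRIB1-1, 4 members were at least 2-fold higher (background 1.96%) and 13 (4.66%) were lower (background 1.84%), with a median difference of -0.11. On shTRIB1-2, 7 were higher (background 1.33%) and 1 was lower (background 0.821%), with a median of 0. On both arrays at once, 1 member was higher and 0 were lower, where 0.35% and 0.083% of all genes were. Both differences were below 0 for 98 members (35.1%, against 34.5% of all genes) and above 0 for 49 (17.6%, against 25.1%). By limma with Benjamini-Hochberg adjustment over 10843 genes, 0 members and 0 genes had an adjusted p under 0.05. The smallest adjusted p was 0.946, and the fit has 1 residual degree of freedom. At an unadjusted p under 0.05 there were 18 members (6.45%, against 3.6% of all genes), 4 higher (background 1.89%) and 14 lower (background 1.71%). These p-values measure only the spread between the 2 hairpin arrays.

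**Figure D4:**
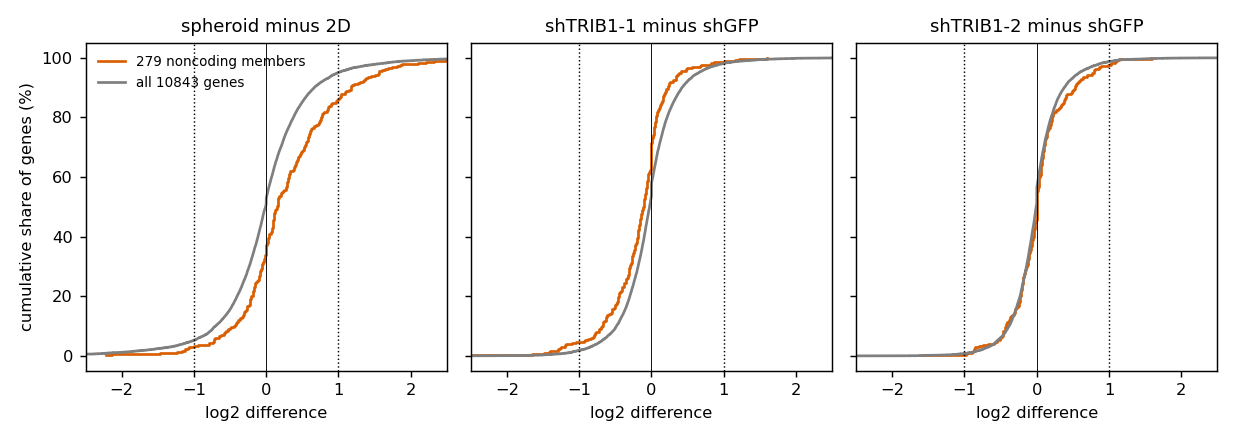
Cumulative share of genes (%) by log2 difference, for the 279 noncoding members and all 10843 genes that reached a level of 6, in spheroid minus 2D, shTRIB1-1 minus shGFP and shTRIB1-2 minus shGFP. Dotted lines mark 2-fold. The members' medians are 0.15, -0.11 and 0.

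LINC01293 was the 1 member higher by 2-fold on both hairpin arrays. It had 6.02 on shTRIB1-1 and 5.94 on shTRIB1-2, against 4.86 on shGFP, with 5.75 in spheroid and 4.48 in 2D. Its differences of 1.16 and 1.08 thus rest on levels at or below the threshold, and limma gave an unadjusted p of 0.0057 and an adjusted p of 0.946. FAM111A-DT had 8.39 on shTRIB1-1 and 8.32 on shTRIB1-2, against 7.53 on shGFP (0.87 and 0.79). Its second probe set differed by 1.11 and 0.34. Next by the smaller difference came LINC00667 (0.47 and 0.86), COPB2-DT (0.56 and 0.41), LINC01111 (0.40 and 1.14), MBNL1-AS1 (0.83 and 0.39), BRINP3-DT (0.37 and 0.41), ZSCAN16-AS1 (0.34 and 0.37), FUT8-AS1 (1.59 and 0.34) and KDM7A-DT (0.34 and 0.52), on shTRIB1-1 and shTRIB1-2. ZSCAN16-AS1 rests on an _x_at probe set, and the mean of its 2 differences was -0.04 when the median of its probe sets was used.

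ZNF232-AS1 was the lowest on both arrays together. It had 6.65 on shTRIB1-1 and 6.94 on shTRIB1-2, against 7.91 on shGFP (-1.25 and -0.97), with 8.07 in spheroid and 7.95 in 2D. Both labelled arrays lay below the other 3, while ZNF232, a zinc finger gene that starts 57 bases away, had 6.75 on shTRIB1-1 and 6.98 on shTRIB1-2, against 7.30 on shGFP. Its other probe set differed by -0.75 and -0.19. SH3PXD2A-AS1 had 5.17 and 5.17 on the shTRIB1-1 and shTRIB1-2 arrays, against 5.97 on shGFP, and was 6.98 in 2D. CBLL1-AS1 had 6.08 on shTRIB1-1 and 5.91 on shTRIB1-2, against 6.81 on shGFP, while CBLL1, a ubiquitin ligase gene, differed by 0.12 and 0.07. LINC02582 was lower on both labelled arrays than on shGFP (-0.67 and -0.68), but both lay above 2D, and against the mean of 2D and shGFP the difference was -0.03. The others were ITGB2-AS1 (-0.62 and -0.59), LINC01588 (-0.55 and -0.51), LINC01711 (-0.70 and -0.49), SEPTIN7-DT (-0.63 and -0.47), TAF1A-AS1 (-0.46 and -0.74) and TRAM2-AS1 (-0.45 and -0.56). Without _s_at and _x_at probe sets the mean difference was -0.20 for ITGB2-AS1 and -0.09 for LINC01588. None of these members passed the adjusted test.

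**Figure D5:**
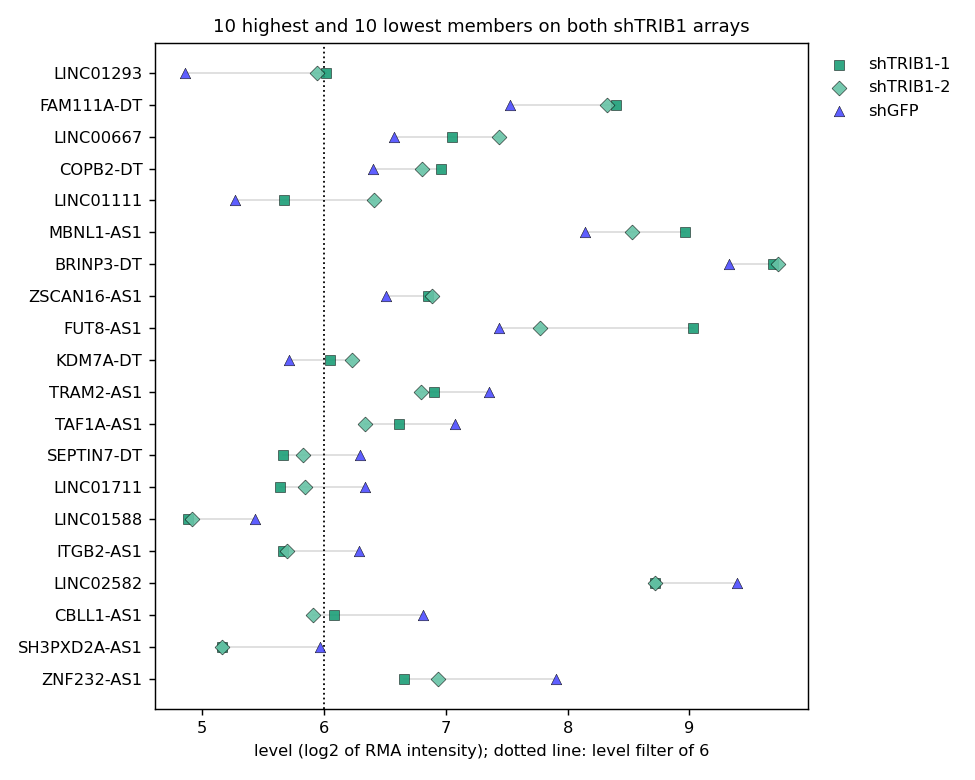
Levels (log2 of RMA intensity) on the shTRIB1-1, shTRIB1-2 and shGFP arrays of the 10 highest and 10 lowest members, ranked by the smaller of the 2 differences among members with the same sign on both. The dotted line is the level filter of 6. LINC01293 lies at 6.02 and 5.94, against 4.86 on shGFP, and ZNF232-AS1 at 6.65 and 6.94, against 7.91.

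Apart from LINC01293 and LINC01003, each member past 2-fold against shGFP was so on 1 hairpin array alone. In shTRIB1-1 minus shTRIB1-2, 4 members were at least 2-fold higher (background 1.98%) and 19 (6.81%) lower (background 3.04%). SSTR5-AS1, antisense to a somatostatin receptor gene, had 6.97 on shTRIB1-1 and 10.04 on shTRIB1-2, against 9.86 on shGFP (-2.90 and 0.18). Its level was 8.0 in spheroid and 8.42 in 2D, so shTRIB1-1 was the lowest of the 5 arrays. OIP5-AS1 had 9.21 on shTRIB1-1 and 10.55 on shTRIB1-2, against 10.61 on shGFP (-1.40 and -0.06). Its second probe set gave -1.21 and -0.04, and the last one gave -0.16 and -0.74. LINC01003 was lower on shTRIB1-1 (-1.20) and higher on shTRIB1-2 (1.02), the 1 member past 2-fold in opposite directions (background 0.166%). ZFHX4-AS1 was 5.67 on shTRIB1-1 and 7.15 on shTRIB1-2, against 5.55 on shGFP. LINC00973 was the 1 member 2-fold lower on shTRIB1-2 (-1.59), with -0.23 on shTRIB1-1. SSTR5-AS1 and ZFHX4-AS1 were chosen after their values were seen.

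On shTRIB1-1, 2 of the 159 pairs were past 2-fold together, where 11 RNAs and 7 genes passed it (background 1.96% higher and 1.84% lower). On shTRIB1-2 it was 1 pair, where 4 RNAs and 3 genes passed it (background 1.33% higher and 0.821% lower). LOXL1-AS1 and LOXL1 differed by -1.19 and -1.0 on shTRIB1-1, and by 0.39 and 0.23 on shTRIB1-2. FRMD6-AS1 and FRMD6, a gene upstream of Hippo signalling, differed by 1.22 and 1.15 on shTRIB1-1 and by 0.23 and 0.20 on shTRIB1-2. NR2F1-AS1 and NR2F1 differed by 1.03 and 1.80 on shTRIB1-2, and by -0.55 and -0.73 on shTRIB1-1. In these 3 pairs, chosen because both passed 2-fold, RNA and gene had the same sign on both arrays. Their starts lay 1324, 162616 and 1222 bases apart on opposite strands. As a yardstick outside the study's contrasts, 13 members were at least 2-fold higher and 6 lower in shGFP minus 2D (background 2.15% and 2.10%). The shGFP and 2D arrays also differ in the hairpin line and in the actin ratio (0.436 and 0.184), so these counts do not measure array noise alone.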

How the data were processed

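RNA from 5 samples of PC-3 was hybridised to Affymetrix arrays with 54675 probe sets. Each deposited value is the linear intensity of a probe set, computed by the authors with RMA per the submitters' processing notes. Its version and chip definition: not given in the sources used here. RMA sets all arrays to nearly the same distribution, so a shift of most genes would be hidden. From the deposited intensity the log2 level was computed, with no pseudocount. Names came from the platform annotation: 41097 probe sets had 1 symbol, 1801 had several and were left out. Groups were taken from the labels. The spheroid and 2D arrays were compared without a test. The hairpin arrays were compared with limma 3.58.1 (R 4.3.3, intensity trend, Benjamini-Hochberg). Its code was tried on simulated arrays with far less spread than these, which does not show how often real changes would be found. Members, gene lists and motifs were chosen with earlier results of these data known. Named genes were the 12 highest and 12 lowest in spheroid minus 2D, the 10 highest and 10 lowest on both hairpin arrays, listed members with a described role, pairs past 2-fold together, members of cell cycle genes, TRIB1, and members beside the threshold. Alternatives changed the filter, probe set choice, pseudocount, centring and control arrays. Arrays have no sequencing depth, and their number limits the precision.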

Additional observations from a re-analysis of the deposited data

How the results depend on the processing

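No paired analysis was possible because the labels give the groups no shared replicate numbers. The 39 members higher and 8 lower in spheroid became 15 and 4 with a level filter of 8, and 25 and 5 with the median of all probe sets per gene. With a pseudocount of 16 the lower count was 5. With both arrays at 6 or more, an alternative chosen after seeing the data, the counts were 17 and 3. With no filter the median difference was 0, and it reached 0.31 at a filter of 8. The 1 member higher on both shTRIB1 arrays was lost (0) at a filter of 8 and with a pseudocount of 16. Against the mean of 2D and shGFP, 1 member was lower on both. With 1 hairpin array left out, 4 to 7 members were higher and 1 to 13 lower than on shGFP. Limma called 0 genes in each setting run. Leaving out a hairpin array in limma was not run, since no residual degree of freedom remains. Of 22 members named for spheroid or for a described role and past 2-fold, all 22 kept their sign and 15 stayed past 2-fold with the median over probe sets, and 18 did so with the pseudocount. Without _s_at and _x_at probe sets 19 of them had a value, and 18 stayed past 2-fold. The 7 that fell short with the median were PGM5-AS1 (-0.42), ZFHX4-AS1 (-0.62), LINC00997 (-0.85), DNAJC3-DT (0.95), CCDC18-AS1 (0.995), EPB41L4A-AS1 (0.83) and SBF2-AS1 (0.47). Among named members under 2-fold, signs turned for MCM3AP-AS1, LINC00662 and, on the hairpin arrays, ZSCAN16-AS1 with that median, for PSMA3-AS1, THAP9-AS1 and LINC00467 against the mean of 2D and shGFP, and for SPINT1-AS1 after centring. The share of pairs with the same sign was 53.6% in the main setting, and 54.3% or 55.3% in the others. Low signals limit the members near a level of 6.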
